A study of Mus musculus with 25 samples.

Results

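The colony-stimulating factors and their receptors are encoded by 8 genes in the mouse, and these 8 were taken by gene symbol from the 24411 symbols in the count files. The 3 ligand genes are Csf1, Csf2 and Csf3, and the 5 receptor genes are Csf1r, Csf2ra, Csf2rb, Csf2rb2 and Csf3r. RNA-seq was carried out on 25 macrophage samples in 9 conditions. Bone marrow-derived macrophages (BMDMs) of C57BL/6 mice, differentiated with 25 ng/ml recombinant M-CSF for 4 days, gave 7 groups of 3 samples. These were control BMDMs with a labelled culture time of 4 h and BMDMs given 100 U/ml IFN-γ and 100 ng/ml LPS (IFN-γ-primed LPS). The labelled times of the latter were 1, 4, 12 or 24 h. The remaining BMDMs were given 10 ng/ml IL-4 or 10 ng/ml IL-13 for 12 h. The study describes IFN-γ as a pretreatment, but the time by which it preceded LPS is not stated. No group was given IFN-γ alone. RAW264.7, a macrophage cell line transformed by a leukemia virus and derived from BALB/c mice, gave 2 control samples and 2 samples given 100 ng/ml LPS alone for 4 h. All BMDM groups share the M-CSF differentiation, that is, they were grown in the protein that Csf1 encodes, and no source used here says whether M-CSF stayed in the medium during stimulation. BMDMs stimulated with LPS alone were not analysed here.

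Colony-stimulating factors are secreted proteins that drive the growth, survival and maturation of myeloid cells. M-CSF, from Csf1, acts through CSF1R, a receptor tyrosine kinase that macrophages need to survive and that also binds IL-34. GM-CSF, from Csf2, binds an α chain from Csf2ra that joins the common β chain from Csf2rb, which the IL-3 and IL-5 receptors share and which signals through JAK2 and STAT5. Mice carry a further β chain gene, Csf2rb2, whose product serves the IL-3 receptor. G-CSF, from Csf3, acts through CSF3R, a receptor best known from neutrophils, and Csf2 and Csf3 are textbook targets of inflammatory stimulation in macrophages and stromal cells.

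Sense-strand counts per sample totalled 2378639 to 3357300. The ribosomal precursor Rn45s took 20.1% to 39.8% of them, and the 1502618 to 2532496 counts left per sample were the base for the level, CPM, which is the count of a gene scaled to a total of 1000000 per sample. Levels below are plain CPM, whereas log2 fold changes are from edgeR's quasi-likelihood test after TMM scaling, which centres the typical gene. A member was called changed at a Benjamini-Hochberg adjusted p of at most 0.01 over all genes tested. The choice of scale matters at 4 h in particular, since without TMM the median of all 9568 genes tested moved by -0.61 on the log2 scale there, by -0.22 at 1 h, by -0.34 at 12 h and by -0.20 at 24 h. A level in CPM can therefore fall while the TMM-scaled change stays near 0, and both are given where they part. The labels do not tell separate animals from separate wells, so p-values measure the spread between these samples, and in bulk samples fewer expressing cells and less RNA per cell cannot be told apart.

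The samples carried macrophage markers. Of 10 such markers 9 had counts in BMDMs, with sums of 15727 to 30461 CPM, and 8 in RAW264.7, with sums of 10734 to 11694 CPM. Cd163 was at 0 in both cell types and Mertk was at 0 in RAW264.7. Neutrophil markers summed to 23.5 to 46.7 CPM in BMDMs and to at most 2.93 CPM in RAW264.7, and stromal and endothelial markers to 42.4 to 123 CPM and to at most 1.84 CPM. Lymphocyte and mast cell markers stayed below 1 CPM. The libraries also fell into sets by a technical measure, the share of Rn45s counts on the antisense strand, which was 0.0386% to 0.122% in the 12 control, 1 h, 4 h and 12 h samples and 0.00603% to 0.0214% in the 9 samples of 24 h, IL-4 and IL-13. Comparisons of 24 h, IL-4 or IL-13 with the control, and of 12 h IFN-γ-primed LPS with IL-4 or IL-13, cross these sets, as do the step from 12 h to 24 h and the comparison of resting RAW264.7 (0.0199% and 0.0236%) with control BMDMs, so that this library difference and the treatment cannot be told apart there. The share also differed within the first set. It was 0.0386% to 0.0543% in the control and 0.0456% to 0.0594% at 1 h. At 4 h it was 0.0665% to 0.0674% and at 12 h 0.0827% to 0.122%. The 4 h and 12 h samples thus overlapped neither the control, the 1 h samples nor each other. There too this difference and the treatment cannot be told apart. RAW264.7 samples given LPS were at 0.0249% and 0.0283%, above both RAW264.7 controls. The control also differs in culture time from the 12 h and 24 h samples.

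Over the IFN-γ-primed LPS time course, 6 of the 8 genes had enough counts to be tested, and Csf2 and Csf3 did not. At 1 h, 2 of the 6 rose and 0 fell, against 26.0% of all genes tested called in either direction. At 4 h, 2 rose and 2 fell (51.5% of all genes called), at 12 h 3 rose and 1 fell (47.3%), and at 24 h 3 rose and 1 fell (45.2%). With backgrounds this high, these counts are no result about the members as a group, and the results below are those of each gene. The members moved in different directions and at different times. Between neighbouring time points, 1 rose and 4 fell from 1 h to 4 h (38.9% of all genes called), 2 rose and 2 fell from 4 h to 12 h (35.9%), and 1 rose and 2 fell from 12 h to 24 h (14.2%).

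Csf1 is the only ligand gene with counts in resting BMDMs. It lies on chromosome 3 from 107741048 to 107760469 on the minus strand (mm10, GENCODE M21, 9 exons in the longest coding transcript). The control samples held 39.2, 45.9 and 62.9 CPM. At 4 h the samples held 248, 234 and 249 CPM, each above every other sample of the series. The rise was 2.83 ± 0.14 (log2 fold change ± SE, edgeR adjusted p 6.57e-21), or 7.09-fold, and it was 2.30 without TMM. Stromal and endothelial markers, which mark cells that also make M-CSF, summed to 59.0 to 106 CPM at 4 h against 85.2 to 111 CPM in the control. Of the 4 of these markers tested at 4 h, 1 rose and 3 gave no call, with a median log2 fold change of -0.07 (51.5% of all genes called). The marker that rose, Pdgfrb, stood at 20.6 to 33.3 CPM at 4 h against 2.97 to 5.36 CPM in the control. The part of these markers' cells in the Csf1 change was not tested.

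This peak was transient. At 1 h the samples held 51.0, 51.4 and 65.7 CPM, overlapping the control, with a log2 fold change of 0.38 (edgeR adjusted p 0.0707, and 0.60 with adjusted p 0.00848 without control replicate 3). From 1 h to 4 h Csf1 rose by 2.45 ± 0.14, and from 4 h to 12 h it fell by 2.43 ± 0.14 on the log2 scale (edgeR adjusted p 5.78e-19 and 2.34e-18). At 12 h the samples held 64.9, 57.1 and 36.6 CPM, a log2 fold change of 0.39 against control (edgeR adjusted p 0.0415) that overlapped the control samples and passed the test when control replicate 3 or 12 h replicate 3 was left out (0.62 with adjusted p 0.00341 and 0.61 with adjusted p 0.000956). At 24 h the samples held 80.5, 86.0 and 73.8 CPM, all above the control, and Csf1 was up by 0.92 ± 0.15 (edgeR adjusted p 2.48e-06). The increase from 12 h to 24 h, 0.52 ± 0.15, passed narrowly (edgeR adjusted p 0.00858), failed in DESeq2, and failed when any of 11 of the 15 samples was left out, most clearly without 12 h replicate 3 (0.32, adjusted p 0.113).

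The 250 bases before the annotated start of Csf1 are shown because Csf1 was the ligand gene that rose most in CPM in BMDMs. The sequence is from RefSeq on GRCm38.p6, chr3:107760470-107760719, minus strand, 5′ to 3′, and capitals mark the 10 bases that fit the NF-κB consensus at positions -154 to -145 from the start and the 2 GC box matches. It reads as follows.
Csf1 upstream: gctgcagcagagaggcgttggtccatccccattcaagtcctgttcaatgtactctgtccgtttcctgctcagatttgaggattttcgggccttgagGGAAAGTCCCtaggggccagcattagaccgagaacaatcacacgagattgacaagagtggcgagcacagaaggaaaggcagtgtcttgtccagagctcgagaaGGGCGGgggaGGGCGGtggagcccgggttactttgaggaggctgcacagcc
On both strands, the NF-κB consensus occurs in 7.25% of the 32851 upstream windows of this length in the table, and the GC box letters CCGCCC, which read GGGCGG on the strand shown, in 32.7%. No match was found for the AP-1 letters TGANTCA (in 6.75% of windows), the PU.1 letters GAGGAA (23.3%), the STAT letters TTCNNNGAA (7.02%) or TATAAA (12.4%), and the matches found did not overlap each other. A match describes the letters and is not evidence of binding. The table held a window for 5 of the 8 members.

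Csf2, which encodes GM-CSF, was at 0 counts in all 3 control BMDM samples, where 3 counts would be 1.75 to 1.79 CPM. It lies on chromosome 11 from 54247271 to 54249667 on the minus strand (4 exons). At 1 h the samples held 9, 5 and 15 counts, or 4.78, 3.02 and 7.14 CPM, the highest in BMDMs. Summed over the group this is at least 8.71-fold above the control, with 3 counts over the control group taken as its floor. At 4 h Csf2 was back at 1, 2 and 0 counts, at 12 h it was at 0, 1 and 0 counts, and at 24 h it was at 3, 4 and 7 counts, at least 3.46-fold above the control.

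The filter on low counts left Csf2 out of the fit. With genes of any count kept, edgeR called it at 1 h (adjusted p 1.96e-07) and 24 h (adjusted p 0.000659), and its drop from 1 h to 4 h (adjusted p 0.00203). Csf2 was in that fit only through IFN-γ-primed LPS samples, so its calls against the control add nothing to the counts. The dendritic cell marker sum was 46.2 to 50.8 CPM at 1 h against 0.582 to 1.79 CPM in the control, nearly all of it from Clec9a. Of the other 6 markers, Xcr1 was at 0.476 to 0.604 CPM in the 1 h samples and at 0 in the control, Zbtb46 and Dpp4 had 3 and 1 counts at 1 h and 2 and 0 in the control, Cd209a had 0 and 1, and Flt3 and Siglech were at 0 in both groups. The part of this in the Csf2 counts was not tested.

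Csf3, which encodes G-CSF, was also at 0 counts in the 3 control samples. It lies on chromosome 11 from 98701263 to 98703629 on the plus strand (5 exons). It had 2, 1 and 3 counts at 1 h, 1, 0 and 0 at 4 h, 7, 5 and 6 at 12 h and 16, 20 and 10 at 24 h. The 24 h samples, at 7.44, 9.20 and 3.95 CPM, lay above every other BMDM sample. Against the floor of the control this is at least 5.27-fold at 12 h and at least 11.4-fold at 24 h.

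With genes of any count kept, edgeR called Csf3 at 12 h (adjusted p 1.09e-05) and 24 h (adjusted p 7.61e-11) but not at 1 h (adjusted p 0.0317), and it called the step from 4 h to 12 h (adjusted p 0.00328). The ligand genes thus reached their highest BMDM level at different times, Csf2 at 1 h, Csf1 at 4 h and Csf3 at 24 h. Csf2 and Csf3 had 0 counts in every IL-4 and IL-13 sample. With genes of any count kept, Csf3 at 12 h of IFN-γ-primed LPS was called against both cytokines (edgeR adjusted p 4.7e-05 and 3.4e-05). Csf3 was in these fits only through IFN-γ-primed LPS samples, so its calls against the control and the cytokines add nothing to the counts.

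**Figure D1:**
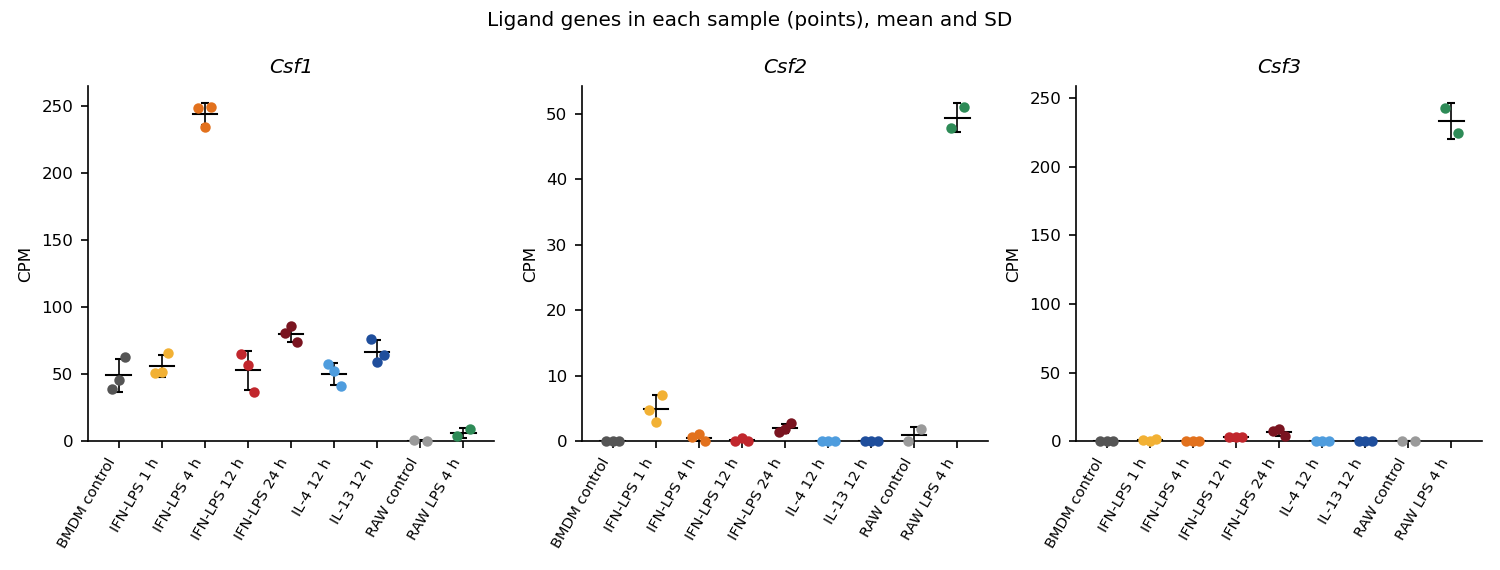
CPM (vertical axis, linear) of the 3 ligand genes in each of the 25 samples (points) by condition, with the group mean (wide line) and SD (bars). Csf1 peaks at 234 to 249 CPM in BMDMs at 4 h, whereas Csf2 and Csf3 reach 47.8 to 51.0 and 224 to 242 CPM in LPS-stimulated RAW264.7 cells and stay below 10 CPM in every BMDM sample.

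Csf1r had the highest level per kb of transcript in control BMDMs, 156 ± 16.9 CPM per kb (SD, n = 3), followed by Csf2rb2 at 93.2 ± 2.11, Csf2ra at 84.1 ± 3.40, Csf2rb at 81.4 ± 2.23, Csf3r at 43.2 ± 4.31 and Csf1 at 11.8 ± 2.92. Csf1r lies on chromosome 18 from 61100598 to 61132149 on the plus strand (21 exons). The control samples held 816, 660 and 718 CPM and the 1 h samples 738, 629 and 680 CPM, which overlapped (0.09, edgeR adjusted p 0.562, and -0.10 without TMM). At 4 h the samples held 379, 294 and 362 CPM and at 12 h 454, 413 and 364 CPM, all below every control and 1 h sample.

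The fall of Csf1r was -0.56 ± 0.11 at 4 h (edgeR adjusted p 4.93e-05) and -0.53 ± 0.11 at 12 h (adjusted p 9.88e-05), and it was -1.09 and -0.84 without TMM. From 1 h to 4 h Csf1r fell by 0.65 on the log2 scale (adjusted p 7.47e-06). The macrophage marker sum was also lower, at 15727 to 16732 CPM at 4 h and 16871 to 19113 CPM at 12 h against 24360 to 26101 CPM in the control, and it was already 17718 to 18751 CPM at 1 h. This sum is mostly Lyz2, at a mean of 22611 CPM in the control and 11000 CPM at 4 h, and of the 9 markers tested 5 rose and 4 fell at 4 h and 4 rose and 4 fell at 12 h. Cd14, for one, went from a mean of 315 CPM to 3239 CPM at 4 h. Their part in the change was not tested. At 24 h the samples held 634, 442 and 450 CPM, still below every control sample. The log2 fold change there was -0.30 (edgeR adjusted p 0.0179), and the call turned on 1 sample, the scale and the filter. It was -0.47 (adjusted p 8.28e-05) without 24 h replicate 1, -0.53 (adjusted p 0.000681) without TMM and -0.38 (adjusted p 0.00573) with at least 10 counts in every sample.

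Csf2ra encodes the chain that gives the GM-CSF receptor its ligand specificity and lies on chromosome 19 from 61223957 to 61228429 on the minus strand (12 exons). The control samples held 158, 148 and 160 CPM and the 1 h samples 203, 176 and 223 CPM, all above the control. At 4 h the samples held 230, 165 and 165 CPM, all above the control, though replicates 2 and 3 lay close to its highest sample. Csf2ra rose by 0.56 ± 0.11 at 1 h (edgeR adjusted p 6.27e-05) and 0.78 ± 0.11 at 4 h (adjusted p 6.39e-08). The 1 h call held without TMM (0.37, adjusted p 0.00818), but the 4 h call did not (0.25, adjusted p 0.0478).

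At 12 h the samples held 164, 170 and 150 CPM and at 24 h 173, 137 and 158 CPM, both overlapping the control. The 12 h change of 0.36 ± 0.11 passed narrowly (edgeR adjusted p 0.00629) and was lost without control replicate 1 or 2 or 12 h replicate 1 or 2 (adjusted p 0.0114 to 0.0256) and without TMM (0.05, adjusted p 0.742). At 24 h the log2 fold change was 0.22 (edgeR adjusted p 0.0849). The drop from 4 h to 12 h, -0.42 ± 0.11 (adjusted p 0.00154), was lost without 4 h replicate 1 (-0.28, adjusted p 0.0422) and without TMM (-0.21, adjusted p 0.131).

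The β chain genes, Csf2rb and Csf2rb2, lie side by side on chromosome 15 on opposite strands, Csf2rb from 78325752 to 78353847 on the plus strand (15 exons) and Csf2rb2 from 78282507 to 78305721 on the minus strand (14 exons), 20030 bases apart. Their coding sequences match at 95.2% of 2631 aligned bases, and of 1201 stretches of 101 bases, the read length, that lie within 1 coding exon, 263 are identical between the genes. The files have the layout of STAR's gene counts, which take uniquely mapped reads. A read pair that matches both genes equally well is thus left out, while a mate in an identical stretch is counted where its partner tells the genes apart, and the share of pairs left out is not known. The most different and 1 identical coding stretch are shown, so that the basis of the separation can be seen. They were read from GRCm38, chr15:78338886-78338986 plus strand in exon 5 of Csf2rb and chr15:78294345-78294445 minus strand in exon 4 of Csf2rb2, with the 16 differing bases in capitals (84.2% identity), and chr15:78348577-78348677 plus strand in exon 15 of Csf2rb, which equals chr15:78284771-78284871 minus strand in exon 14 of Csf2rb2 at every base.
Csf2rb exon 5: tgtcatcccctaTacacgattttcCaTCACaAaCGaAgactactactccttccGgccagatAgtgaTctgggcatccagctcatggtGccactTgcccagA
Csf2rb2 exon 4: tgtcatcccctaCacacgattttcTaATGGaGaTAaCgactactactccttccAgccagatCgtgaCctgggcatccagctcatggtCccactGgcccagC
Csf2rb exon 15 and Csf2rb2 exon 14: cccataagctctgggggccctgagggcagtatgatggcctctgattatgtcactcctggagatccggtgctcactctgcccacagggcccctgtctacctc
Since the genes share this much sequence, a misplaced read would move counts from one to the other, and how often that happened was not tested.

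Csf2rb, the β chain of the GM-CSF, IL-3 and IL-5 receptors, was the receptor gene called in the most BMDM comparisons with control. The control samples held 399, 388 and 410 CPM, the 1 h samples 419, 395 and 443 CPM and the 4 h samples 259.5, 227 and 232 CPM. The 1 h samples overlapped the control, with a log2 fold change of 0.26 (edgeR adjusted p 0.0199) that passed without 12 h replicate 3 (0.27, adjusted p 0.00819). The 4 h samples all lay below it in CPM, yet the TMM-scaled change was -0.21 (adjusted p 0.0454) against -0.74 (adjusted p 1.56e-09) without TMM, so the call at 4 h depended on the scale.

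At 12 h Csf2rb reached 701, 707 and 719 CPM and at 24 h 511, 422 and 518 CPM, all above every control sample. It rose by 1.14 ± 0.09 at 12 h (edgeR adjusted p 1.39e-15) and by 0.50 ± 0.09 at 24 h (adjusted p 4.7e-06), and both calls held without TMM (0.83 and 0.27). The steps were a fall of -0.47 ± 0.09 from 1 h to 4 h, a rise of 1.35 ± 0.09 from 4 h to 12 h and a fall of -0.64 ± 0.09 from 12 h to 24 h (edgeR adjusted p 3.09e-05, 3.92e-17 and 1.31e-07).

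Csf2rb2, the β chain that pairs with the IL-3 receptor α chain, took another course. The control samples held 444, 431 and 451 CPM, the 1 h samples 458, 456 and 523 CPM and the 4 h samples 317, 297 and 289 CPM. The 1 h samples all lay above the control and the 4 h samples all below it. At 1 h it rose by 0.31 ± 0.09 (edgeR adjusted p 0.00528), a call lost without any of the 3 control samples or 1 h replicate 3 (adjusted p 0.0106 to 0.0495) and without TMM (0.12, adjusted p 0.301). At 4 h the TMM-scaled change was -0.03 (adjusted p 0.805), whereas without TMM it was -0.56 (adjusted p 5.93e-07).

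At 12 h the samples held 425, 441 and 404 CPM, overlapping the control, with a log2 fold change of 0.24 (edgeR adjusted p 0.0175) whose sign turned without TMM (-0.07) and which passed without 24 h replicate 1 (0.26, adjusted p 0.00879). From 4 h to 12 h the change was 0.27 (adjusted p 0.0121), and it passed without 24 h replicate 1 (0.28, adjusted p 0.00829) and without TMM (0.49, adjusted p 1.18e-05). At 24 h they held 282, 236 and 287 CPM, below every control sample, a fall of -0.50 ± 0.09 (adjusted p 7.12e-06) that was -0.72 without TMM. From 12 h to 24 h Csf2rb2 fell by 0.74 on the log2 scale (SE 0.09, adjusted p 9.32e-09). The fall from 1 h to 4 h of -0.33 ± 0.09 (adjusted p 0.00188) was lost without 1 h replicate 3 (-0.26, adjusted p 0.0298) or 4 h replicate 3 (-0.30, adjusted p 0.0161).

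The split of counts between the β chain genes does not depend on library scaling. Csf2rb took 47.5% ± 0.154 of their summed counts in the control (SD, n = 3), 46.7% ± 0.994 at 1 h and 44.3% ± 0.925 at 4 h. It took 62.6% ± 1.26 at 12 h, 64.3% ± 0.133 at 24 h, 56.7% ± 1.54 with IL-4 and 59.1% ± 1.93 with IL-13. Every sample of the last 4 groups lay at 55.5% or more and every control, 1 h and 4 h sample at 47.8% or less. In the exact two-sided permutation test against the control, 1 h gave p 0.4 and each other BMDM group p 0.1. The latter is the smallest p that 3 against 3 samples allow, so the test adds nothing to the lack of overlap.

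**Figure D2:**
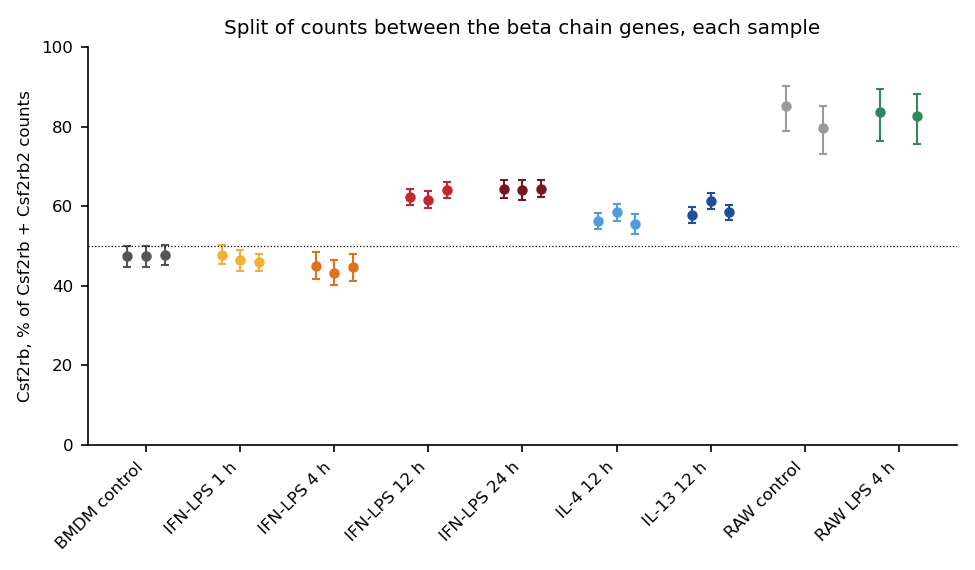
Csf2rb counts as a percentage of Csf2rb plus Csf2rb2 counts in each sample (points) with the exact 95% binomial interval (bars), which covers counting error only, and a dotted line at 50%. Control, 1 h and 4 h BMDM samples lie between 43.3% and 47.8%, the 12 h, 24 h, IL-4 and IL-13 samples between 55.5% and 64.4%, and the RAW264.7 samples between 79.7% and 85.2%.

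Csf3r encodes the G-CSF receptor and lies on chromosome 4 from 126024550 to 126044440 on the plus strand (17 exons). The control samples held 141, 142 and 168 CPM, the 1 h samples 130, 135 and 162 CPM and the 4 h samples 77.9, 72.9 and 68.0 CPM. At 12 h the samples held 232, 232 and 308 CPM and at 24 h 212, 193 and 231 CPM. The 1 h samples overlapped the control (0.11, edgeR adjusted p 0.5, and -0.08 without TMM). Csf3r was therefore lowest at 4 h and highest at 12 h, with no overlap with the control at 4, 12 or 24 h.

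The fall at 4 h was -0.52 ± 0.13 (edgeR adjusted p 0.000771), -1.05 without TMM, and was lost without control replicate 3 (-0.42, adjusted p 0.0118) or 4 h replicate 3 (-0.45, adjusted p 0.0127). The rise was 1.09 ± 0.12 at 12 h (adjusted p 3.61e-11) and 0.72 ± 0.12 at 24 h (adjusted p 8.41e-07). From 4 h to 12 h Csf3r rose by 1.61 ± 0.13 (adjusted p 1.13e-14), and the change from 12 h to 24 h was -0.37 (adjusted p 0.0106). It passed without control replicate 3, 12 h replicate 1 or 2 or 24 h replicate 3 (adjusted p 0.00296 to 0.0099). The neutrophil marker sum was 25.0 to 27.1 CPM at 12 h and 23.5 to 26.5 CPM at 24 h against 25.6 to 37.8 CPM in the control, and its members moved in both directions. Of the 4 tested, 1 rose and 1 fell at 12 h, and 1 rose and 3 fell at 24 h. S100a8 went from 5.96 to 13.4 CPM in the control to between 16.6 and 22.6 CPM at 12 h. It was called there (1.41, edgeR adjusted p 5.83e-06), whereas Mmp8 fell (-2.28, adjusted p 4.68e-05). At 24 h Ngp, S100a9 and Mmp8 fell (-5.94, -2.01 and -1.49, edgeR adjusted p 3.74e-06, 0.00852 and 0.00109). Camp stood at 3.55 to 4.14 CPM at 24 h against at most 1.19 CPM in the control, and Mpo was at 0 throughout the time course. Their part in the Csf3r change was not tested.

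**Figure D3:**
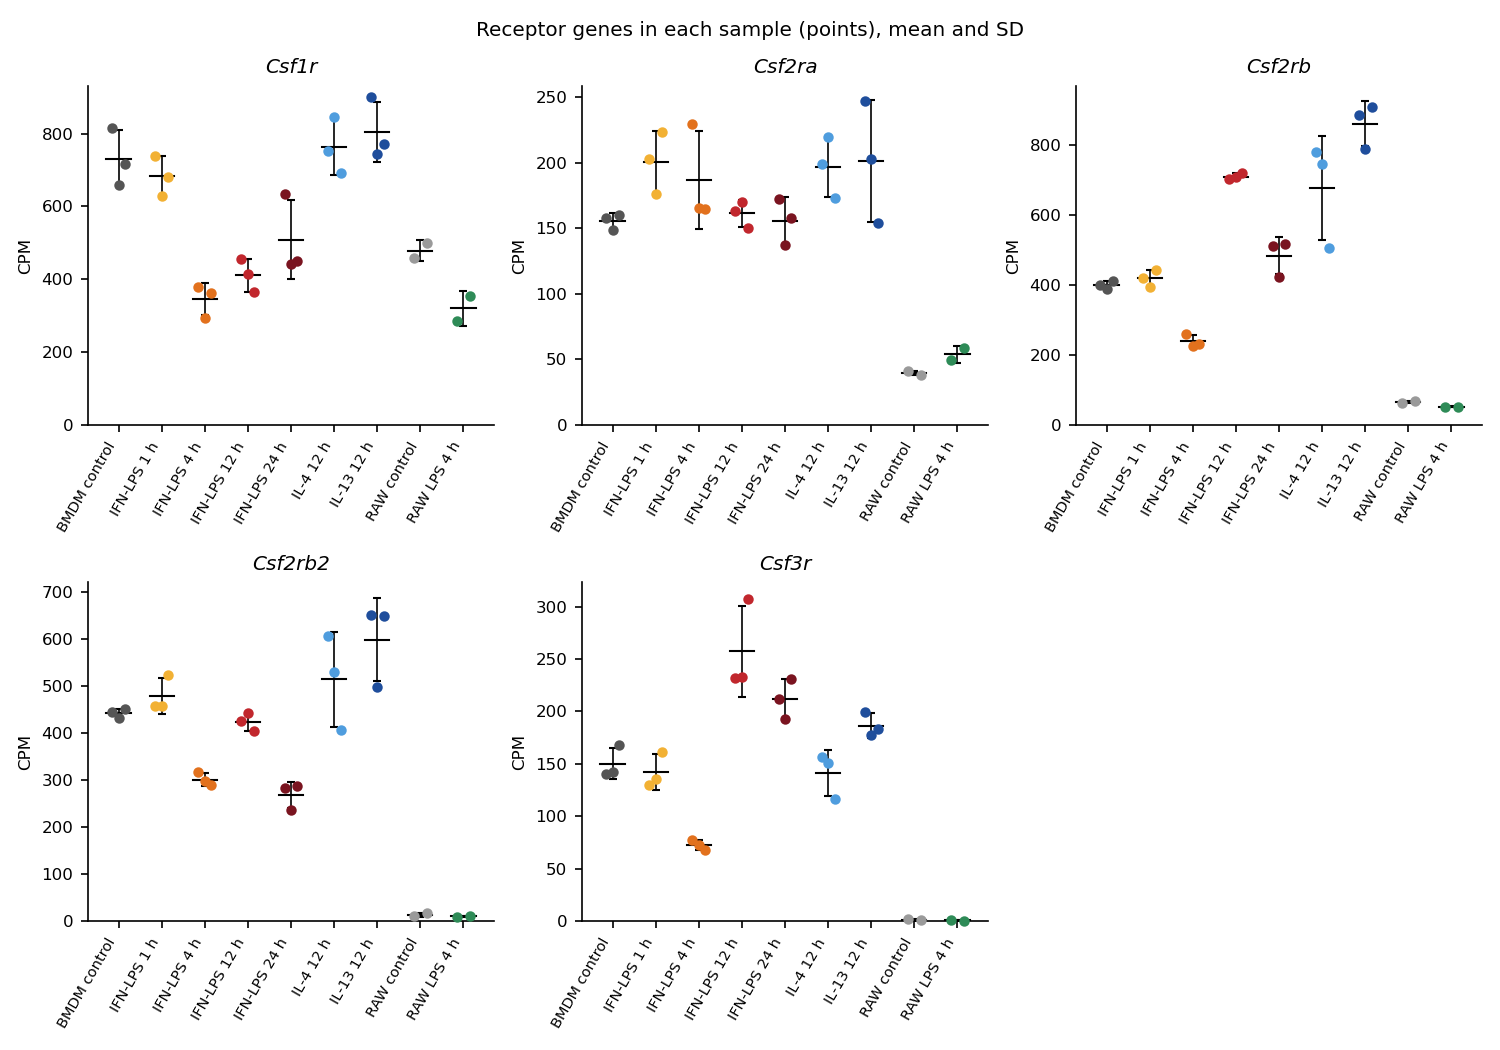
CPM (vertical axes, linear, a separate scale for each gene) of the 5 receptor genes in each of the 25 samples (points) by condition, with the group mean (wide line) and SD (bars). In BMDMs, Csf2rb and Csf3r exceed all control samples at 12 h and 24 h, Csf1r is lower at 4 h and 12 h, and Csf2ra stays between 137 and 247 CPM.

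With IL-4, 1 of the 6 members tested rose and 0 fell (7.63% of 9252 genes called), and with IL-13, 2 rose and 0 fell (10.1%). The gene called in both was Csf2rb. The IL-4 samples held 778, 745 and 505 CPM and the IL-13 samples 884, 787 and 908 CPM, all above the control samples. The rise was 0.76 ± 0.10 with IL-4 (edgeR adjusted p 1.65e-07) and 1.07 ± 0.10 with IL-13 (adjusted p 1.7e-11), and neither call was lost when any 1 sample was left out. The median change of all genes was -0.01 in both comparisons.

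Csf2rb2 held 605, 530 and 405 CPM with IL-4 and 649, 497 and 647 CPM with IL-13. The IL-13 samples lay above the control and gave 0.40 ± 0.10 (edgeR adjusted p 0.00457), but the call was lost in DESeq2 and without any of the control samples, IL-13 replicate 1 or IL-13 replicate 3 (adjusted p 0.0125 to 0.0998). The IL-4 samples overlapped the control, with 0.21 (adjusted p 0.188). Csf2ra held 199, 219 and 173 CPM with IL-4 and 247, 203 and 154 CPM with IL-13, with log2 fold changes of 0.34 (adjusted p 0.0432) and 0.33 (adjusted p 0.0424). The IL-4 value passed when IL-13 replicate 1 or 3 was left out of the shared fit (adjusted p 0.00606 and 0.00999), and the IL-13 value when IL-13 replicate 3 was (0.49, adjusted p 0.000372).

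The remaining members gave no call with either cytokine. Csf1r held 753, 847 and 691 CPM with IL-4 and 899, 744 and 773 CPM with IL-13, both overlapping the control (0.06, 95% interval -0.11 to 0.23, and 0.10, -0.07 to 0.26). Csf1 held 57.4, 52.4 and 41.0 CPM and 76.4, 59.2 and 64.2 CPM, and the IL-13 value of 0.38 (edgeR adjusted p 0.0756) passed without control replicate 3 (0.61, adjusted p 0.00827). Csf3r held 157, 151 and 117 CPM with IL-4 and 200, 177 and 183 CPM with IL-13, with log2 fold changes of -0.09 (adjusted p 0.681) and 0.27 (adjusted p 0.0733).

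Between IL-13 and IL-4, 0 of 6 members passed edgeR's test and 0 passed in DESeq2, with 0.108% of all genes called, and 3 had an unadjusted p under 0.05. These were Csf1 (0.36, edgeR adjusted p 0.582), Csf2rb (0.31, adjusted p 0.311) and Csf3r (0.36, adjusted p 0.26), all higher with IL-13. The samples of these 3 genes did not overlap between the cytokines, which rests on the same values as the unadjusted p. The shares of all genes with such a p or without overlap were not computed, so neither is read further.

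**Figure D4:**
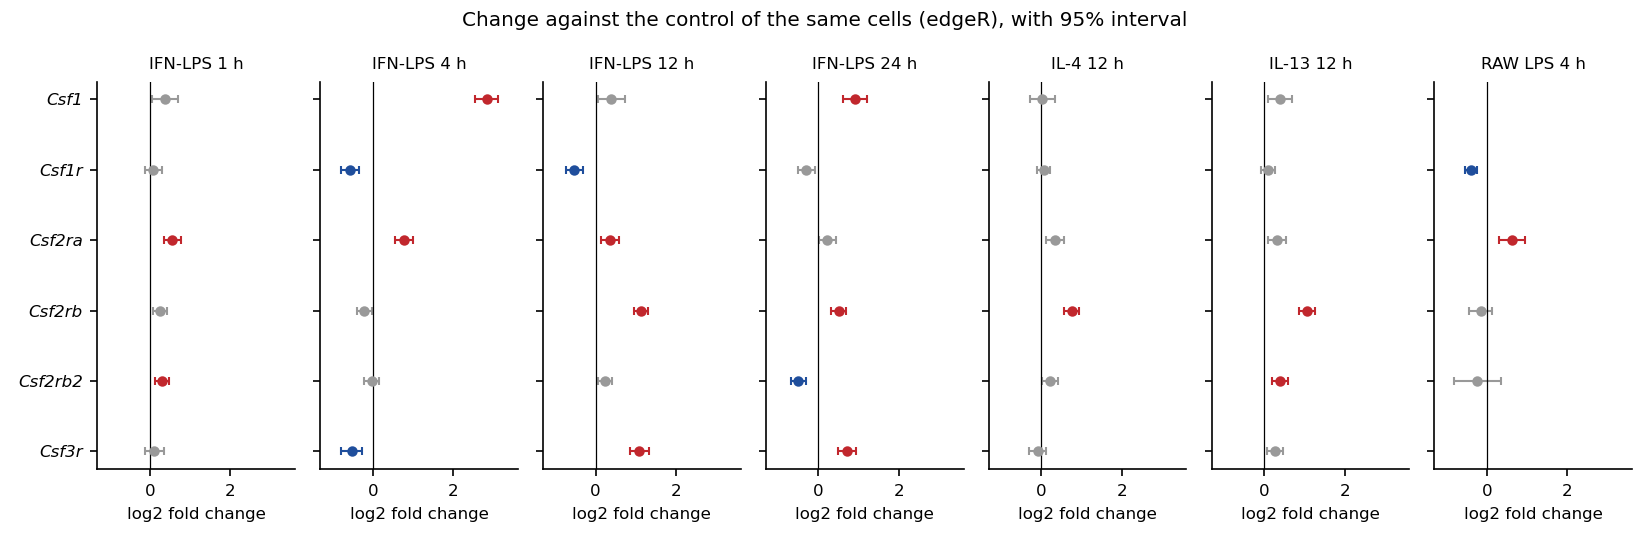
Log2 fold change against the control of the same cells (horizontal axis, edgeR with TMM) for the 6 members with tested values in BMDMs, 1 panel per treatment, with 95% intervals (bars). Red and blue points passed the test upward and downward and grey points did not. Csf1 at 4 h (2.83) lies furthest from 0, and Csf2rb is red in 4 of the 6 BMDM panels.

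IFN-γ-primed LPS at 12 h was also compared with IL-4 and IL-13 at 12 h, a comparison at equal labelled time without the control. Against IL-4, 2 of 6 members were higher and 1 was lower (42.8% of 9380 genes called), and against IL-13, 1 was higher and 1 was lower (42.3%). Csf1r was lower under IFN-γ-primed LPS in both, by -0.55 ± 0.10 against IL-4 (edgeR adjusted p 2.45e-05) and -0.59 ± 0.10 against IL-13 (adjusted p 7.14e-06), and its samples of 364 to 454 CPM lay below all 6 IL-4 and IL-13 samples. Csf3r was higher in both, by 1.22 ± 0.13 (adjusted p 4.27e-10) and 0.86 ± 0.13 (adjusted p 4.26e-07), and its samples of 232 to 308 CPM lay above all 6.

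Csf2rb was higher than with IL-4 by 0.42 ± 0.11 (edgeR adjusted p 0.00198). That call was lost without IL-4 replicate 3 (0.26, adjusted p 0.0538) and without TMM (0.07, adjusted p 0.638), and the samples overlapped in CPM. Against IL-13 its log2 fold change was 0.11 (95% interval -0.11 to 0.33), with a sign that turned without TMM (-0.28). Csf1 against IL-4 gave 0.41 (edgeR adjusted p 0.0388), which passed without 12 h replicate 3 (0.59, adjusted p 0.00116). Csf2rb2 against IL-13 gave -0.12 (adjusted p 0.422) and -0.50 without TMM (adjusted p 0.000715), and Csf2ra gave 0.06 in both comparisons, with a sign that turned without TMM (-0.29 and -0.32). The signs of Csf2rb2 against IL-4 (0.07) and of Csf1 against IL-13 (0.04) turned without TMM as well (-0.28 and -0.34).

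In RAW264.7 cells, 3 of 6 members tested rose with LPS and 1 fell (27.9% of 9406 genes called). Csf3 had 1 and 0 counts in the control samples and 522 and 536 counts with LPS, or 242 and 224 CPM. The ratio of the summed counts, scaled by depth, was 1004, with a 95% counting interval of 180 to 39712, and edgeR called the gene (adjusted p 2.77e-236). Csf2 had 0 and 4 counts in the control samples and 103 and 122 with LPS, or 47.8 and 51.0 CPM, a log2 fold change of 5.83 (edgeR adjusted p 9.92e-56, with a standard error of 0.78 in DESeq2). Both genes passed the filter on low counts only through the LPS samples and so had to differ, and the count of 3 is not read further. Both fitted changes rest on the few control counts and passed with any sample left out. Csf2 gave 4.85 without control replicate 1 and 9.86 without control replicate 2, and Csf3 gave 12.08 and 9.01. Per kb of transcript, Csf3 at 165 ± 9.20 CPM per kb (SD, n = 2) stood first of the 8 members in LPS-stimulated RAW264.7 cells, before Csf1r at 68.1 ± 10.2 and Csf2 at 61.8 ± 2.79, and the last 2 did not differ beyond their spread.

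Csf1 had 2 and 0 counts in control RAW264.7 cells and 8 and 22 with LPS, a ratio of 14.2 (95% counting interval 3.61 to 123). It was left out by the filter on low counts and was called when genes of any count were kept (edgeR adjusted p 2.36e-06). Csf1r held 458 and 499 CPM in the control and 287 and 354 CPM with LPS, a fall of -0.40 ± 0.08 (edgeR adjusted p 2.85e-06) that was lost without LPS replicate 1 (-0.27, adjusted p 0.0266). Csf2ra held 40.9 and 38.4 CPM and 49.2 and 58.5 CPM, a rise of 0.63 ± 0.16 (adjusted p 0.000482) lost in DESeq2, without TMM (0.45, adjusted p 0.0178) and without LPS replicate 2 (0.52, adjusted p 0.0495). Csf2rb held 63.3 and 67.9 CPM and 52.5 and 51.4 CPM (-0.16, adjusted p 0.425), Csf2rb2 was at 10.2 to 17.3 CPM in all 4 samples (-0.24, adjusted p 0.565), and Csf3r had 2 to 4 counts in each.

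Resting RAW264.7 cells had lower levels than resting BMDMs for 6 of the 8 members, 0 were higher, and 67.7% of 10269 genes were called. Csf3r was at 1.84 and 0.936 CPM against 141 to 168 CPM in BMDMs (-6.96, edgeR adjusted p 1.36e-57, with a standard error of 0.61 in DESeq2), and Csf1 at 2 summed counts against 251, with BMDMs higher by a ratio of 107 (95% counting interval 29.2 to 885). The fitted log2 difference of Csf1, -6.79, became -9.44 without RAW264.7 control replicate 1 and -5.90 without replicate 2. Csf3r and Csf1 passed the filter on low counts only through the BMDM samples and so had to differ. The count of 6 is therefore not read further. Csf2rb2 was lower by -5.24 ± 0.15, Csf2rb by -2.88 ± 0.12, Csf2ra by -2.25 ± 0.14 and Csf1r by -0.89 ± 0.09 (edgeR adjusted p 1.48e-72, 3.97e-54, 2.04e-33 and 3.81e-16). All RAW264.7 samples lay below all control BMDM samples for these 6 genes. The share of all genes without such overlap was not computed, so this count is not read further. Csf2 and Csf3, with at most 4 counts in any of the 5 resting samples, gave no call (adjusted p 0.0378 and 0.295), and Csf2 passed without RAW264.7 control replicate 1 (adjusted p 0.00797). The β chain genes differed in their split, with Csf2rb at 85.2% and 79.7% of their counts in the RAW264.7 control samples against 47.4% to 47.6% in control BMDMs. Mouse strain, cell origin, transformation and culture differ together between these cells and cannot be told apart.

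**Figure D5:**
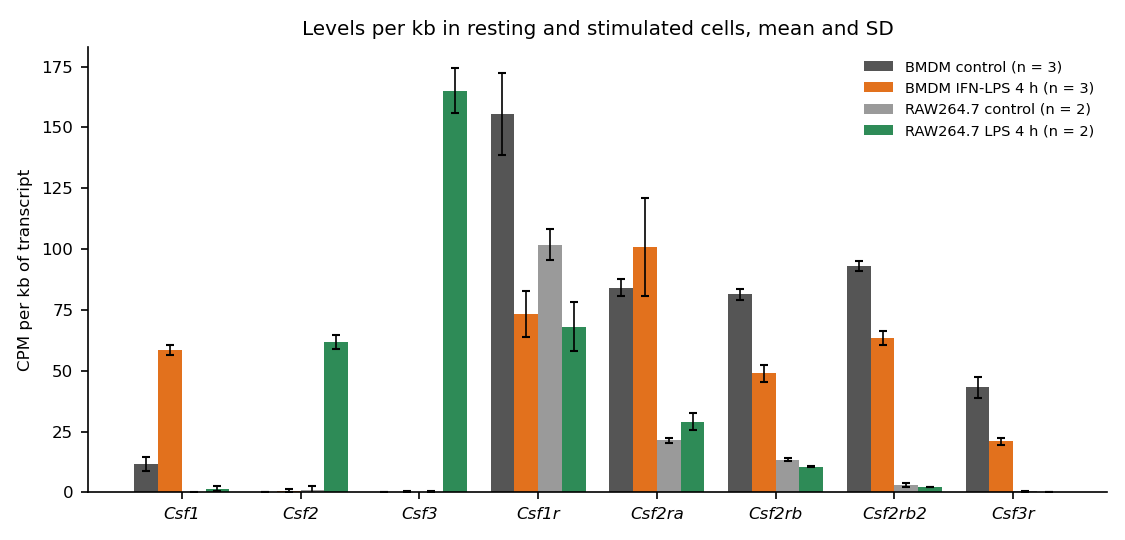
Mean CPM per kb of transcript (bars, linear axis from 0) with SD (error bars) of the 8 members in control and 4 h stimulated BMDMs (n = 3) and RAW264.7 cells (n = 2). Csf1r is present in all 4 groups, Csf2rb2, Csf3r and Csf1 are near 0 in RAW264.7 cells, and Csf2 and Csf3 stand out in LPS-stimulated RAW264.7 cells at 61.8 and 165 CPM per kb.

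The 4 h change in RAW264.7 minus that in BMDMs was tested as an interaction, with different agents in the 2 cell types. Of the 8 members 0 passed edgeR's test, 0 had an unadjusted p under 0.05, DESeq2 called 1 (Csf3), and 27.5% of all genes were called. The differences were 0.07 for Csf1r (95% interval -0.19 to 0.34), -0.24 for Csf2ra (-0.63 to 0.15), -0.03 for Csf2rb (-0.37 to 0.31) and -0.30 for Csf2rb2 (-0.87 to 0.27). Csf3r and Csf1 gave -0.01 and 0.88 with too few counts in RAW264.7 cells for a close estimate, and the standard errors in DESeq2 were 0.95 and 1.08. Without TMM, Csf1r gave 0.51 (adjusted p 0.00117), and the signs of Csf2ra, Csf2rb, Csf2rb2 and Csf3r turned. For Csf2 and Csf3 the interaction could not be estimated with any precision, the standard error being 5.12 and 140 on the log2 scale. Their summed counts were 225 and 1058 in LPS-stimulated RAW264.7 cells against 3 and 1 in BMDMs at 4 h, ratios of 81.9 (95% counting interval 27.7 to 400) and 1155 (207 to 45653).

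The genes around these receptors and ligands were read from lists of pathway members. Of 20 genes that carry receptor signals, 8 rose and 4 fell at 4 h, where 51.5% of all genes were called (median log2 fold change 0.40, against -0.07 over all genes tested). Jak2, the kinase bound to the common β chain, went from 60.5 to 71.4 CPM in the control samples to between 1073 and 1112 CPM and rose by 4.57 ± 0.11 (edgeR adjusted p 2.76e-36), and Stat5a rose by 3.93 ± 0.16 (adjusted p 3.28e-22). Inpp5d, which encodes the phosphatase SHIP1, fell by -2.99 ± 0.13 (adjusted p 1.47e-24). The counts were 9 up and 1 down at 1 h (26.0% of all genes called), 10 and 5 at 12 h (47.3%) and 7 and 5 at 24 h (45.2%). With IL-4 they were 3 and 1 (7.63%), with IL-13 4 and 1 (10.1%), and Jak2 rose in both, by 1.19 ± 0.11 and 1.68 ± 0.11 (adjusted p 3.9e-12 and 2.41e-18).

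Among STAT5 and growth factor response genes, 5 of 15 rose and 6 fell at 4 h (median -0.94, 51.5% of all genes called). The genes furthest up were Socs3, Cish and Socs1, feedback inhibitors of cytokine receptors, at 523 ± 53.1, 25.0 ± 0.995 and 93.8 ± 9.44 CPM (SD, n = 3). Their control samples were at no more than 1.79, 0 and 2.98 CPM. These genes thus entered the fit only through stimulated samples, and the count of 5 is not read further. With IL-4, 4 of 13 rose and 0 fell (7.63% of all genes called), and with IL-13, 6 rose and 3 fell (10.1%). Cish stood at 4.63 ± 1.03 and 15.1 ± 3.09 CPM there and was called in both (edgeR adjusted p 3.93e-05 and 6.74e-11). With 0 CPM in the control, Cish entered that fit only through the cytokine samples. Its calls and the counts of 4 and 6 are therefore not read further. In RAW264.7 cells, 9 of 13 rose with LPS and 0 fell (27.9%).

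Of transcription factors known to act on the receptor genes, 7 of 11 rose and 4 fell at 4 h (median 1.18, 51.5% of all genes called). Gfi1 was at 0 counts in the control and at 24.4 ± 0.373 CPM at 4 h (SD, n = 3). It entered the fit only through stimulated samples, so the count of 7 is not read further. Cebpa, a factor of myeloid receptor promoters, went from 490 ± 38.9 to 8.80 ± 2.37 CPM and fell by -5.28 ± 0.16 (edgeR adjusted p 3.01e-31). Of factors known to act on the ligand genes, 6 of 9 rose and 3 fell at 4 h (median 2.84, 51.5% of all genes called), and Nfkb2, Nfkb1 and Relb, of the NF-κB family, rose by 4.85 ± 0.12, 3.53 ± 0.14 and 3.43 ± 0.14 (adjusted p 4.84e-35, 1.24e-22 and 3.48e-26). With IL-4, edgeR called 0 of these 9 (7.63% of all genes), and with IL-13, 1 (10.1%).

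Of 13 related ligands and receptors, 3 had enough counts in the BMDM time course. Kitl, which encodes stem cell factor, went from 11.6 to 13.7 CPM in the control to between 1.38 and 2.76 CPM at 24 h and fell by -2.32 ± 0.37 (edgeR adjusted p 6.65e-07), and Flt3l, the FLT3 ligand gene, rose by 1.72 ± 0.45 (adjusted p 0.00104). Il3ra, the IL-3 receptor α chain gene, was at 14.6 ± 2.91 CPM in control BMDMs (SD, n = 3) and at 0 counts in all 4 RAW264.7 samples, where Csf2rb2 was at 10.2 to 17.3 CPM.

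The order of the conditions was set by few clear gaps. Of the 8 pairs of neighbouring conditions in each gene's order, the sample ranges were separate in 5 for Csf2rb2 and Csf3r. They were separate in 4 for Csf3 and Csf2rb, 3 for Csf1, 2 for Csf2 and Csf2ra and 1 for Csf1r. Some separate pairs lie near 0, as Csf3r in RAW264.7 control (4 and 2 counts) against LPS (2 and 2 counts). The share of such pairs over all genes was not computed, so these counts are no result about the members. For each member, the 3 genes of 10561 whose mean log2 CPM over the 9 conditions correlated best with it were listed, as a description only, since BMDM and RAW264.7 levels differ throughout and weigh heavily in it. Csf1 was followed by Dlgap4, Myo1g and Gtpbp2 (Pearson r 0.98, 0.97 and 0.97), Csf2 by Dpep3, Zxdb and Lif (0.95, 0.92 and 0.92) and Csf3 by Tnfrsf9, Pxn and Lix1 (0.97, 0.94 and 0.93). Csf1r was followed by Zdhhc9, Rassf3 and Ttyh3 (each 0.99), Csf2ra by Crlf2, Mapkapk3 and Rgs12 (0.99, 0.99 and 0.98), Csf2rb by Atp6v1d, Gabarap and Zfp758 (1.00, 0.99 and 0.99), Csf2rb2 by Ctss, Xist and Apoe (1.00, 0.99 and 0.99) and Csf3r by Pdlim4, Arap1 and Lipo1 (each 1.00). Antisense counts were few beside these values, as for Csf1 at 4 h, where 4 antisense counts stood beside 1208 sense counts.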

How the data were processed

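RNA-seq counts of 25 samples (21 BMDM, 4 RAW264.7) were analysed, with groups taken from the sample labels. The labelled molecule is polyA RNA, but the labels' extraction protocol and the study's methods describe rRNA depletion. Directional libraries were sequenced as 101-base paired reads on a HiSeq2000. The submitters' processing notes name CASAVA 1.8.2, Trimmomatic 0.33, STAR 2.5.1 and mm10, and the annotation release is not given in the sources used here. The authors deposited raw read counts per gene symbol, in whole numbers without normalization, for both strands and for each strand. The sense-strand counts were used, without Rn45s. CPM is these counts scaled to a total of 1000000 per sample, with no TMM.

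Tests were run in R 4.3.3 with edgeR 4.0.16 (robust quasi-likelihood, TMM, filterByExpr, group means, Benjamini-Hochberg over all genes tested, threshold 0.01), in 5 fits of the groups compared. Only the time-course fit, for 4 h against control, was tried on simulated data, with changes set in genes with ample counts. The other fits were not simulated. Standard errors were taken as the size of the change divided by the root of its F statistic, and 95% intervals are 1.96 standard errors on each side. DESeq2 1.42.0, no TMM, other filters, Rn45s kept, unstranded counts, the replicate number as a block, 1 model of all 25 samples, the fold cutoffs of the study and leaving out each sample were tried as alternatives. Further steps used pandas 2.3.3, SciPy 1.17.1, Biopython 1.88 and matplotlib 3.10.9 in Python 3.11.15. Replicates differed by more than sampling noise in all 23 pairs within groups (chi-square per degree of freedom 1.30 to 4.53). Each library was counted as 1 sample, but this measure cannot tell separate animals from wells or from repeat libraries of 1 RNA sample.

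Counting and binomial intervals and floors cover counting error only, and PCR copies are not told apart. The 95% intervals of log2 changes include the spread between samples, and these standard errors are too small for genes with few counts. Depth limits Csf2 and Csf3 in BMDMs and Csf1 and Csf3r in RAW264.7 cells, which have few counts. Positions, exons and coding sequences are from GENCODE M21 on GRCm38, matched by symbol, and the upstream sequence is from RefSeq. The members, lists and tests were chosen with earlier results of these data known. Named genes are all 8 members and, of the other lists, per comparison at most the 3 tested genes with the largest change past the threshold, plus for each member the 3 genes most like it over the 9 conditions. Cell type markers named beside a result were chosen after their values were seen. A gene that this rule would name among the transcription factors is not reported here.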

Additional observations from a re-analysis of the deposited data

How the results depend on the processing

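Of the log2 fold changes of the members, 1809 values under the alternatives kept their direction or stayed short of the threshold, 34 newly passed it, 77 no longer passed it and 0 reversed from a call. The sign changed or was lost for 25 of the 94 log2 fold changes under some alternative, 0 of them past the test, and for 15 of these without TMM. Leaving out TMM ended 6 calls and added 6, as given beside each gene. The count of members called at 1 h was 1 without TMM and 1 with at least 10 counts in every sample, and 1 to 3 with a sample left out. With IL-4 it was 1 to 2 and with IL-13 1 to 2 with a sample left out, and DESeq2 gave 1 with IL-13. In RAW264.7 cells it was 2 with at least 10 counts in every sample, a filter that left Csf2 and Csf3 out, and the interaction count was 1 in DESeq2 (Csf3) and 1 without TMM (Csf1r). With the fold cutoffs of the study (log2 1.5 for IFN-γ-primed LPS, 0.7 for IL-4 and IL-13, 2 for RAW264.7), the counts were 0 at 1 h, 1 at 4 h, 0 at 12 h, 0 at 24 h, 1 from 1 h to 4 h, 2 from 4 h to 12 h, 0 from 12 h to 24 h, 1 with IL-13, 0 at 12 h against IL-4, 0 against IL-13 and 2 in RAW264.7 cells. Samples with the same replicate number deviated together weakly at most (r from -0.0853 to 0.21 in the time course, over 0.1 in 4 of 30 pairs). The mean r was 0.0336 there, against -0.0169 for samples with different numbers. The number was not taken to pair them. The replicate block added 3 calls (Csf1r at 24 h, Csf2rb2 from 4 h to 12 h and Csf3r from 12 h to 24 h) and ended 0 of 94, and the count of members called at 4 h was 4 with the replicate block too. With at least 10 counts in every sample, Csf2rb2 at 1 h and Csf2ra at 12 h lost their calls (adjusted p 0.032 and 0.0616) and Csf1r at 24 h, Csf2rb at 4 h and Csf2rb2 from 4 h to 12 h gained them (adjusted p 0.00573, 0.000687 and 0.00282). Csf3r from 12 h to 24 h also passed with Rn45s kept, with 1 model of all samples and with no filter (adjusted p 0.00496, 0.00235 and 0.00336), and Csf2rb2 at 12 h with Rn45s kept (0.00863). Mean levels moved by more than 1 SD in 81 cases and by less in 135 with TMM, with Rn45s kept or with unstranded counts. Low counts limit what can be said of Csf2 and Csf3 in BMDMs and of Csf1 and Csf3r in RAW264.7 cells.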
